A study of Saccharomyces cerevisiae with 12 samples.

Results

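The genes that encode the protein part of the mitochondrial ribosome of Saccharomyces cerevisiae were followed across 12 arrays that set a hal4hal5 double mutant against its wild type. Members were the open reading frames whose standard gene name starts with MRPL, MRPS or RSM, or is MRP followed by a number. The RefSeq gene table of assembly R64 held 67 such names, and 66 of them had a row among the 5994 open reading frames of the deposited table; MRPL13 had none. They lie on 14 chromosomes. Of the 66, 37 belong to the large and 28 to the small subunit, and 64 carry a name of the universal ribosomal nomenclature in the gene table. RSM22 and MRP8 carry none; RSM22 was kept with the small subunit by its name, and MRP8 was put in neither subunit, so that its name alone made it a member. A universal name with the prefix b or u marks a protein with a counterpart in bacterial ribosomes, which held for 41 members, and the prefix m marks a protein found in mitochondrial ribosomes only, which held for 23.

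Mitochondria keep a ribosome of their own, which makes the few proteins still encoded by mitochondrial DNA, mainly core subunits of the respiratory chain and the ATP synthase. Its ribosomal RNAs come from mitochondrial DNA, whereas nearly all of its proteins are encoded in the nucleus, made in the cytosol and imported. In budding yeast these nuclear genes are known to move together with the need for respiration, and the RNA-binding protein Puf3 is known to bind many of their transcripts.

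The kinases encoded by HAL4 (SAT4) and HAL5 are known as activators of potassium uptake. In each of 3 sets of 4 two-colour arrays, RNA of the strain labelled hal4,5 was hybridised against RNA of its wild type. The sets were the laboratory strain BY4741 in YPD, a rich glucose medium, at pH 4.5, the laboratory strain W303 in YPD at pH 4.5, and W303 in YPD at pH 6.0, all grown at 28 °C to log phase. Each set holds 4 biological replicates, in the words of the submitters. All values are log2 ratios of mutant over wild type, so that a positive value is a higher level in the mutant. Their direction rests on the deleted genes, which read below 0 on 9 of 10 arrays for SAT4 (-1.74 to 0.62) and on 9 of 11 for HAL5 (-0.78 to 0.42). The arrays that went against it all belonged to W303: HAL5 read 0.42 on replicate 1 at pH 4.5 and 0.19 on replicate 1 at pH 6.0, and SAT4 read 0.62 on replicate 2 at pH 6.0. The fall was shallow for SAT4 in W303 at pH 4.5, between -0.23 and -0.09, and the opposite reading of the dyes would turn every sign given here. A ratio compares RNA of whole cultures, so fewer cells with a transcript and less of it per cell cannot be told apart.

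The arrays held between 4418 and 5696 values, and between 50 and 65 of the 66 members. Values on all 12 arrays existed for 41 members. A member was tested in a set when at least 3 of its 4 arrays measured it, which gave 62 members in BY4741 and, for W303, 63 at pH 4.5 and 59 at pH 6.0. In all 3 sets 58 were tested, and MRPL15, MRPL24 and MRPS17 were tested in none. The sets differed in precision. The median standard deviation (SD) between the arrays of a set, over features measured on all 4, was 0.15 for BY4741 and, for W303, 0.13 at pH 4.5 and 0.25 at pH 6.0. Replicate 3 of the last set stood apart, with the fewest values and a mean correlation of 0.186 with the other arrays of its set, and results that rest on it are also given without it.

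In BY4741 at pH 4.5 the mutant carried more mRNA of the mitochondrial ribosomal proteins. By limma with adjustment over all features tested, 30 of 62 members (48.4%) passed an adjusted p of 0.05 as higher, where 15.9% of the 5461 features tested were called higher and 31.4% in either direction. No member was called lower, where 15.4% of features were. At an unadjusted p below 0.05 limma gave 40 members higher and 1 lower, and 1185 of the 5461 features higher and 1220 lower. The median of the member means was 0.24, beside -0.01 for all features tested, and 54 of 62 members were above 0. Member means ran from -0.15 to 0.67, and none of the called members reached a 2-fold change. Of the 57 members measured on all 4 arrays, 40 (70.2%) were above 0 on every one of them, compared with 24.6% of all features. The count of 30 fell to 15 without replicate 3 (24.2%, against 13.6% of all features in either direction) and to 15 without replicate 4 (23.8%, against 17.9%), all of them higher.

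The largest rise in BY4741 belonged to MRPL37, a mitochondria-specific protein of the large subunit. Its log2 ratios on replicates 1 to 4 were 0.68, 0.64, 0.53 and 0.82, with a mean of 0.67 ± 0.12 (SD, n = 4), or 1.59-fold (limma adjusted p = 0.00132). All 4 arrays were high and the values lay close together. MRPL4, the counterpart of a bacterial protein near the exit of the peptide tunnel, read 0.60, 0.76, 0.70 and 0.43, with a mean of 0.62 ± 0.15 (SD, n = 4) and a limma adjusted p of 0.00235. MRPL39, another large subunit protein with a bacterial counterpart, read 0.64, 0.49, 0.60 and 0.68, with a mean of 0.60 ± 0.081 (SD, n = 4; limma adjusted p = 0.00141). MRP20, which like MRPL4 sits at the tunnel exit in the bacterial ribosome, read 0.71, 0.36, 0.70 and 0.47. Its mean was 0.56 ± 0.18 (SD, n = 4; limma adjusted p = 0.00454), and its 2 higher values came from the arrays with the mutant in Cy5.

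Small subunit members rose by similar amounts. MRP2, a counterpart of a bacterial small subunit protein, gave nearly the same value on every array, 0.53, 0.57, 0.57 and 0.58, for a mean of 0.56 ± 0.022 (SD, n = 4; limma adjusted p = 0.00125). MRPS16, also with a bacterial counterpart, was measured on 3 arrays at 0.18, 0.63 and 0.93 (replicates 1, 3 and 4). Its mean was 0.58 ± 0.37 (SD, n = 3; limma adjusted p = 0.0332), one of the widest ranges of the set, and the call was lost without replicate 3 (adjusted p = 0.151) or replicate 4 (adjusted p = 0.123). MRPS5 and MRPL33 had the other wide ranges. MRPS5, a bacterial-type protein of the small subunit, read 0.11, 0.63, -0.18 and 0.28, and MRPL33, a bacterial-type protein of the large subunit, read -0.18, 0.56, 0.04 and 0.48. Both were above 0 on 3 of 4 arrays and neither was called. On both, the arrays with the mutant in Cy3 (replicates 2 and 4) gave the higher values. With a term for the dye in the fit, MRPL33 was called higher at 0.23 (limma adjusted p = 0.0272).

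Such a separation by dye was common in BY4741. Among the 57 members measured on all 4 arrays, 31 (54.4%) had both arrays of one dye orientation above both arrays of the other, 17 with the Cy5 arrays higher and 14 with the Cy3 arrays higher, and 55.2% of all features did so. The orientation was balanced in that set, 2 arrays each way, and the member median was positive on every array (0.27, 0.26, 0.23 and 0.23).

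A similar shift was measured in W303 at pH 4.5. Of 63 members tested, 41 (65.1%) were called higher, where 36.1% of the 5501 features tested were called higher, and 2 (3.17%) were called lower, where 33.1% of features were. Counted in either direction, 68.3% of members were called, close to the 69.2% of all features in that set, so the difference from the background lay in the direction. The median of the member means was 0.31, beside 0.03 for all features, with a range from -0.46 to 0.72, and none of the called members reached a 2-fold change. Of 62 members measured on all 4 arrays, 43 (69.4%) were above 0 on each array, compared with 37.6% of all features. The mutant was in Cy5 on 3 of the 4 arrays, and the member median was 0.34, 0.28, 0.19 and 0.30 on replicates 1 to 4, of which replicate 2 carried the mutant in Cy3.

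MRP49, a mitochondria-specific protein of the large subunit, rose most in this set. It read 0.74, 0.71, 0.60 and 0.82, with a mean of 0.72 ± 0.092 (SD, n = 4), or 1.64-fold (limma adjusted p = 1.66e-05). MRP20 followed at 0.61, 0.59, 0.86 and 0.75, with a mean of 0.70 ± 0.12 (SD, n = 4; limma adjusted p = 2.71e-05). Both were high on all arrays, including the one with reversed dyes, and MRP20 was thus among the 6 largest rises in both strains.

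MRPL38, whose bacterial counterpart lies at the interface between the subunits, read 0.70, 0.55, 0.56 and 0.64 (mean 0.61 ± 0.068 SD, n = 4; limma adjusted p = 3.08e-05). MRPL31, a mitochondria-specific protein, read 0.75, 0.63, 0.40 and 0.45 (mean 0.56 ± 0.16 SD, n = 4; limma adjusted p = 0.000182). The small subunit was led by MRPS12, the counterpart of the bacterial protein at the decoding centre, with 0.75, 0.49, 0.48 and 0.69 (mean 0.60 ± 0.14 SD, n = 4; limma adjusted p = 7.61e-05). RSM18, a small subunit protein with a bacterial counterpart, read 0.62, 0.54, 0.45 and 0.58 (mean 0.55 ± 0.073 SD, n = 4; limma adjusted p = 5.97e-05). None of these values came near 0 on any array.

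Members fell in W303 at pH 4.5 in only 2 cases. RSM25, a mitochondria-specific protein of the small subunit, read -0.59, -0.38, -0.54 and -0.34, and fell by 0.46 (SD 0.12, n = 4; limma adjusted p = 0.000292). In BY4741 its values were 0.01, -0.08, -0.07 and 0.08, on both sides of 0. MRPL32, a large subunit protein known to be matured by the m-AAA protease of the inner membrane before it joins the ribosome, read -0.39, -0.16, -0.24 and -0.41, and fell by 0.30 (SD 0.12, n = 4; limma adjusted p = 0.00315). In BY4741 MRPL32 was below 0 on all 4 arrays as well, between -0.23 and -0.09, with a mean of -0.15 that was not called (limma adjusted p = 0.109).

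The widest ranges in W303 at pH 4.5 belonged to 3 members of the large subunit. The mitochondria-specific MRPL17 read 0.59 on replicate 1 and -0.04, 0.00 and -0.02 on the others, and was not called. MRPL28, also mitochondria specific, read 0.60, 0.01, 0.42 and 0.51, and was called higher with a mean of 0.38 ± 0.26 (SD, n = 4; limma adjusted p = 0.00593). Its low value came from the array with the mutant in Cy3. MRPL39 read 0.43, 0.61, 0.06 and 0.15, with a mean of 0.31 ± 0.25 (SD, n = 4; limma adjusted p = 0.0153), a call that was lost without replicate 1 (adjusted p = 0.0605) or replicate 2 (adjusted p = 0.0625).

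**Figure D1:**
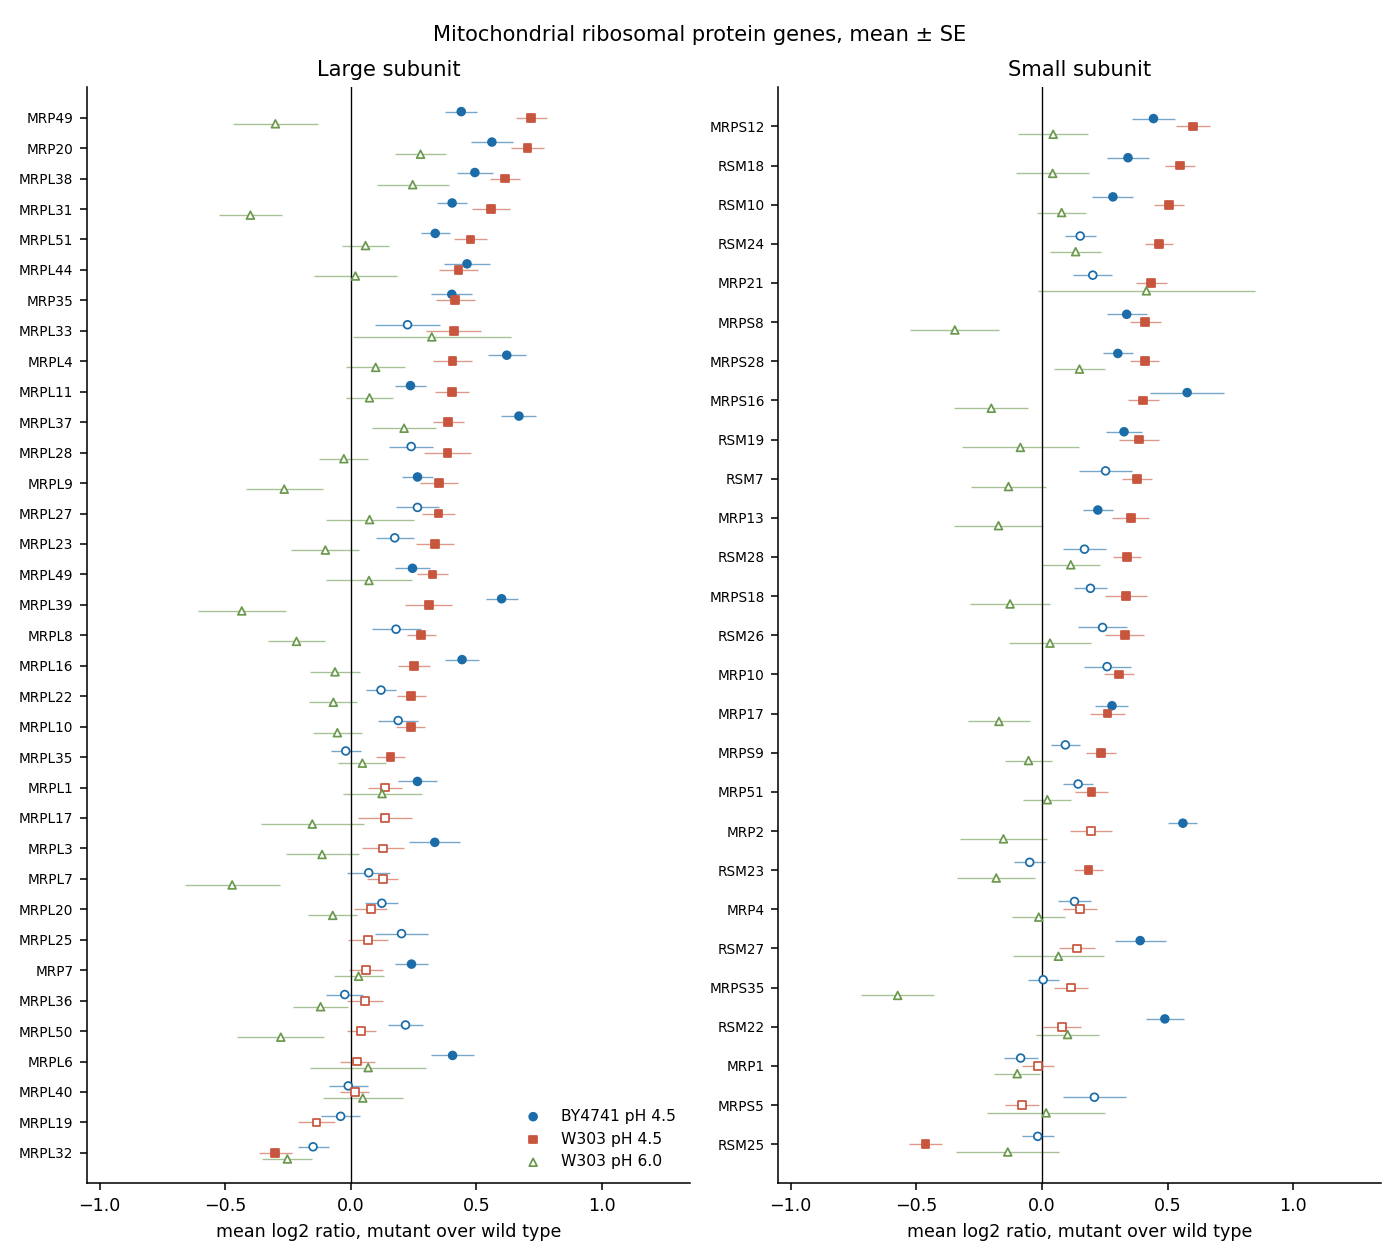
Mean log2 ratio of mutant over wild type (horizontal axis) of each tested member of the large and the small subunit (vertical axis, ordered by the mean in W303 at pH 4.5), with bars for the limma standard error. Circles are BY4741 at pH 4.5, squares W303 at pH 4.5 and triangles W303 at pH 6.0, filled where the member was called; most circles and squares lie right of 0, RSM25 and MRPL32 are the filled squares left of 0, and no triangle is filled.

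Between the strains at pH 4.5, 23 of the 62 members tested in both sets were called higher in both. Of all 5278 features tested in both sets, 665 (12.6%) were higher in both. As shares of the calls, the 23 are 76.7% of the 30 in BY4741 and 56.1% of the 41 in W303. For these shares the 12.6% is not the match. The 665 features stand beside 871 called higher in BY4741 and 1988 in W303 among all features tested in each set. By these counts the share of the BY4741 calls was about the same for members and for all features. The share of the W303 calls was larger for members. Another 12 of the 62 members tested in both sets were called in neither. The members called higher in BY4741 but not in W303 were MRP2, MRP7, MRPL1, MRPL3, MRPL6, RSM22 and RSM27, and 18 were called higher in W303 but not in BY4741. The matching shares of all features called in neither set or in only one are not given here.

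A call in one set and not in the other is not a difference, and the difference itself was tested as a contrast of the set means. By that test 1 of 58 members differed, where 20.4% of the 4755 features tested did, 10.9% higher in W303 and 9.55% lower. At an unadjusted p below 0.05 limma gave 1 member higher and 4 lower, and 848 of the 4755 features higher and 778 lower. The median of the member differences was 0.08, beside 0.02 for all features. The 1 member was RSM24, a mitochondria-specific protein of the small subunit, which read 0.14, 0.10, 0.12 and 0.25 in BY4741 and 0.44, 0.46, 0.52 and 0.45 in W303. The values of the strains did not overlap, and the difference was 0.31 ± 0.092 (SE; limma adjusted p = 0.0308). That call was lost when any 1 array of either set was left out (adjusted p from 0.0505 to 0.0839).

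The members that differed between the strains depended on how the spread was estimated and on the scale of the arrays. Under each setting the share of members called in either direction was below that of all features. With only the 8 arrays compared in the fit, 3 members were higher and 5 lower in W303 (12.9%, against 38.1% of all features). With a spread for each set, an alternative chosen after seeing the data, 2 were higher and 4 lower (10.3%, against 38.4% of all features). With each array centred and scaled to a common spread, none was higher and 4 were lower (6.9%, against 9.38% of all features), namely MRPL37, RSM22, MRPL4 and MRP2, and RSM24 was at 0.16 (limma adjusted p = 0.317). RSM24 and MRP49 were higher and RSM25, RSM22, MRPL37 and MRP2 lower in W303 both with the 8 arrays and with a spread for each set. RSM22, a protein of the small subunit related to methyltransferases, read 0.29, 0.59, 0.46 and 0.61 in BY4741 and 0.34, -0.06, -0.02 and 0.06 in W303. Its difference of -0.41 ± 0.14 (SE) had a limma adjusted p of 0.0543 with the spread pooled over all 12 arrays. RSM22 was picked after its values were seen. MRP2 was at 0.34, 0.36, -0.10 and 0.18 in W303, below each of its values in BY4741, with a difference of -0.37 ± 0.15 (SE; limma adjusted p = 0.106).

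At pH 6.0, W303 had no called member, where 3.36% of the 4856 features tested were called by limma, 1.92% higher and 1.44% lower. At an unadjusted p below 0.05 limma gave 2 members higher and 3 lower of 59, and 486 features higher and 460 lower of 4856. In 1 fit of all 12 arrays it called 2 members higher and 5 lower (11.9%, against 22.7% of all features). Member means lay on both sides of 0, with 28 above and 31 below, a median of -0.03 beside 0.01 for all features, and a range from -0.57 to 0.42. Of the 42 members measured on all 4 arrays, 4 (9.52%) were above 0 on each array and 3 (7.14%) below 0 on each, compared with 15.2% and 14.7% of all features. The SD between arrays was larger here, with a member median of 0.21 compared with 0.12 in each pH 4.5 set, so that a shift of the size measured at pH 4.5 was harder to call.

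The arrays at pH 6.0 did not read alike. The member median was 0.02, 0.01 and 0.07 on replicates 1, 2 and 3 and -0.23 on replicate 4, where 7 of 59 members (11.9%) were above 0, compared with 53.6% to 56.0% on the other 3 arrays. The median of all features on replicate 4 was 0.00. Replicate 4 carried the mutant in Cy5, as did replicate 2, and replicates 1 and 3 carried it in Cy3. Without replicate 3 the median of the member means was -0.10, and again 0 of 63 members were called; without replicate 4 it was 0.02.

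**Figure D2:**
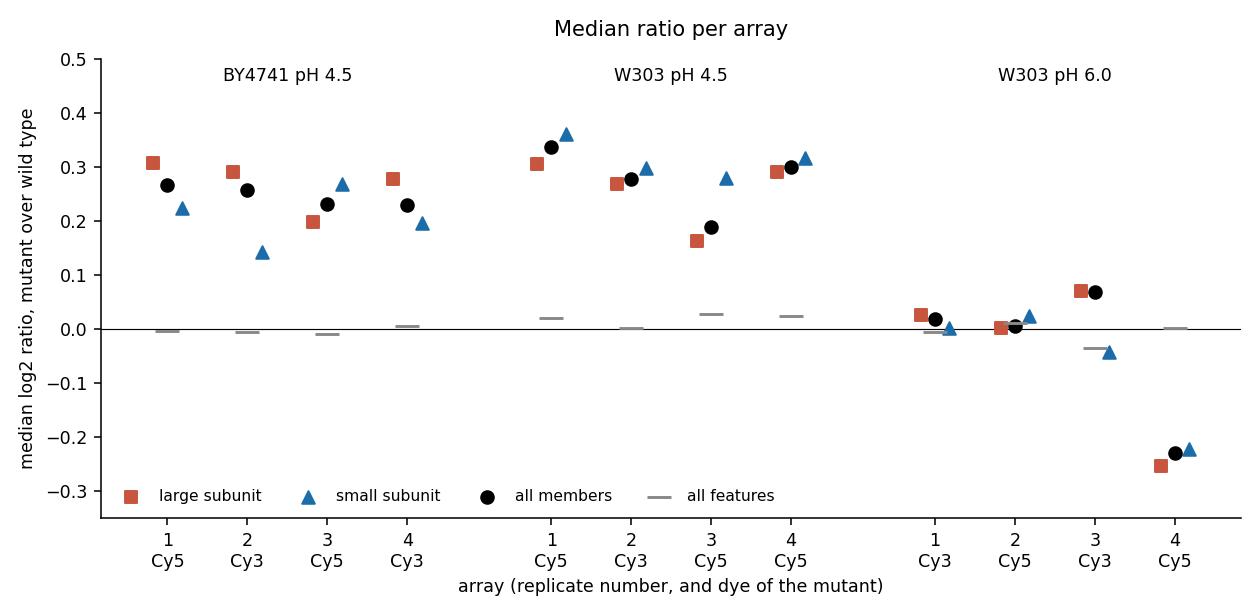
Median log2 ratio of mutant over wild type (vertical axis) on each of the 12 arrays (horizontal axis, with the dye of the mutant), for all members, the large subunit, the small subunit and all features. All 8 arrays at pH 4.5 have a member median between 0.19 and 0.34, and those at pH 6.0 lie between -0.23 and 0.07.

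Single members with wide ranges at pH 6.0 rested on 1 array. MRP21, the counterpart of a small bacterial protein of the small subunit, read 0.00, -0.19, 2.16 and -0.30; the highest value of any member on any array came from replicate 3, and the mean of 0.42 became -0.17 without it. MRPL33 read 0.34, 1.10 and -0.47 on replicates 1, 2 and 3, with a mean of 0.32 that became -0.06 without replicate 2. MRPL24, a large subunit protein with a bacterial counterpart, had values on 2 arrays only, -0.61 and 0.90, and was not tested. MRP20 had the highest mean among the members above 0 on all 4 arrays, at 0.34, 0.12, 0.21 and 0.43 (mean 0.28 ± 0.14 SD, n = 4; limma adjusted p = 0.217).

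The difference between pH 6.0 and pH 4.5 in W303 was tested as a contrast of the set means. Of 58 members tested, 25 (43.1%) were lower in their mutant to wild-type ratio at pH 6.0, where 13.2% of the 4755 features tested were lower, and no member was higher, where 10.7% of features were (24% in either direction). At an unadjusted p below 0.05 limma gave 32 members lower and 1 higher, and 993 of the 4755 features lower and 808 higher. The median of the member differences was -0.31, beside -0.02 for all features, and 51 of 58 were below 0. The values of the 2 sets did not overlap for 25 members, and each of these was lower at pH 6.0. The fit pooled the spread of all 12 arrays although the sets differed in precision; with a spread for each set, an alternative chosen after seeing the data, 13 members were lower and none higher (22.4%, against 16.5% of all features in either direction). When each array was centred and scaled to a common spread, 6 were lower and none higher. The share of members called in either direction, 10.3%, was then no larger than the 12.1% of all features. The share of features called lower alone under that setting is not given here. Without replicate 3 of pH 6.0 the count was 27 of 61 (44.3%), while the share of all features called in either direction rose to 30.6%.

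MRP49 had the largest difference and the only one beyond 2-fold. At pH 6.0 it read 0.08, -0.41 and -0.57 on replicates 1, 2 and 4, whereas its lowest value at pH 4.5 was 0.60. The difference was -1.02 ± 0.14 (SE; limma adjusted p = 0.000602), and it had no value on replicate 3. MRPL31 read -0.32, -0.32 and -0.56 on the same 3 arrays, all below 0, whereas all 4 of its values at pH 4.5 were at least 0.40. Its difference was -0.96 ± 0.12 (SE; limma adjusted p = 0.000286).

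MRPS8, a bacterial-type protein of the small subunit, read 0.53, 0.37, 0.34 and 0.41 at pH 4.5 and -0.10, -0.07, -0.97 and -0.24 at pH 6.0. The sets did not overlap, and the difference was -0.76 ± 0.18 (SE; limma adjusted p = 0.00833); without replicate 3 of pH 6.0 it was -0.55 ± 0.11 (SE; limma adjusted p = 0.00281). MRPS8 was called lower under all 15 alternatives; MRP49, MRPL31, MRPL39, MRPL9 and MRPS35 were called lower under the 14 that tested them, having too few values for the 1 that requires all 4 arrays. MRPL39 read -0.05, -0.76 and -0.49 on replicates 1, 3 and 4 of pH 6.0, each below its lowest value at pH 4.5, with a difference of -0.74 ± 0.17 (SE; limma adjusted p = 0.0103) that became -0.58 ± 0.17 (SE; limma adjusted p = 0.023) without replicate 3. MRPS35, a mitochondria-specific protein of the small subunit, differed in another way, since it had not been called at pH 4.5 (0.30, 0.01, 0.10 and 0.05). At pH 6.0 it read -0.30, -0.64 and -0.78 on replicates 1, 2 and 4, the lowest mean of any member there, and the difference was -0.69 ± 0.13 (SE; limma adjusted p = 0.00273).

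The other 20 members called lower at pH 6.0 had differences between -0.62 (MRPL9) and -0.26 (MRPS28). MRPL51, a mitochondria-specific large subunit protein, moved from values of 0.34 to 0.58 at pH 4.5 to values of 0.00 to 0.14 at pH 6.0, a difference of -0.42 ± 0.086 (SE; limma adjusted p = 0.00445). Its open reading frame overlaps YPR099C, which also has a row in the table, so that its signal is not assigned to one strand. RSM10, a small subunit protein with a bacterial counterpart, was at 0.44 to 0.58 at pH 4.5 and at -0.06 to 0.20 at pH 6.0, a difference of -0.43 ± 0.10 (SE; limma adjusted p = 0.0111). In both cases, which were picked after their values were seen, the highest value at pH 6.0 was below the lowest at pH 4.5. RSM25, one of the pair that had fallen at pH 4.5, had the highest difference of any member, 0.33 ± 0.20 (SE), and was not called (limma adjusted p = 0.246).

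**Figure D3:**
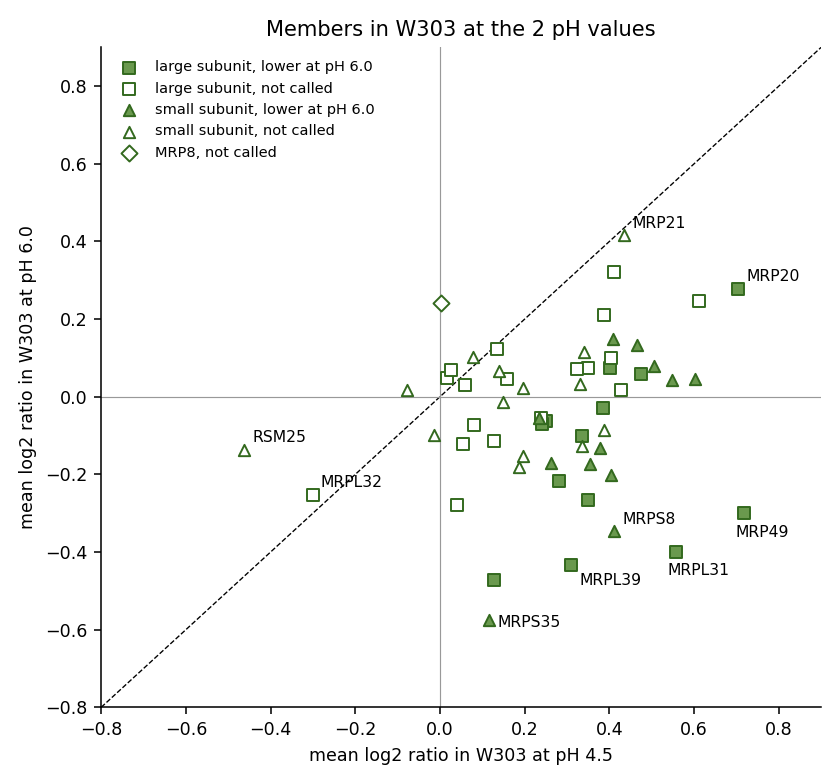
Mean log2 ratio of mutant over wild type in W303 at pH 6.0 (vertical axis) against that at pH 4.5 (horizontal axis) for the 58 members tested, with the dashed line marking equal values and filled symbols the 25 members lower at pH 6.0. Of the 58 points 51 lie below the line, with MRP49 and MRPL31 farthest from it.

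The large and the small subunit had medians close to each other in each set. In BY4741, 18 of 34 large (52.9%) and 12 of 27 small subunit members (44.4%) were called higher, against 15.9% of all features. Both medians were 0.24. For W303 at pH 4.5, 22 of 35 large (62.9%) and 19 of 27 small subunit members (70.4%) were called higher, against 36.1% of all features. Their medians were 0.28 and 0.33, and 1 of each was called lower, where 33.1% of features were. At pH 6.0 none was called of 32 large and 26 small subunit members, where 3.36% of all features were, with medians of -0.04 and -0.03. At an unadjusted p below 0.05 limma gave 3 and 1, and 946 of 4856 features. In the contrast between pH 6.0 and pH 4.5, 13 of 31 large (41.9%) and 12 of 26 small subunit members (46.2%) were lower. Of all features 13.2% were, and the median differences of the subunits were -0.31 and -0.34.

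The gap between the subunits was also measured on each array, as the large subunit median minus the small subunit median. In BY4741 the gap was 0.08, 0.15, -0.07 and 0.08 on replicates 1 to 4, a mean of 0.06 ± 0.092 (SD, n = 4), so the arrays lay on both sides of 0. For W303 it was -0.06, -0.03, -0.12 and -0.03 at pH 4.5, a mean of -0.06 ± 0.041 (SD, n = 4), with the small subunit higher on all 4 arrays. At pH 6.0 it was 0.02, -0.02, 0.11 and -0.03, a mean of 0.02 ± 0.066 (SD, n = 4), which became -0.01 without replicate 3. Compared by name alone, MRPL against MRPS and RSM, the gap in W303 at pH 4.5 was -0.10 ± 0.037 (SD, n = 4). Both subunit medians were above 0 on all 8 arrays at pH 4.5.

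Within the subunits, proteins with a bacterial counterpart were also set beside those specific to mitochondria. In BY4741 the large subunit had 12 of 23 bacterial-type and 6 of 11 mitochondria-specific members higher, with medians of 0.24 and 0.33. Of all features 15.9% were called higher there. In the small subunit 9 of 16 bacterial-type members were higher, with a median of 0.28. Of the mitochondria-specific ones 2 of 10 were (20%, near the share of all features), with a median of 0.16. These small subunit counts in W303 at pH 4.5 were 13 of 16 and 6 of 10, with medians of 0.38 and 0.25, where 36.1% of all features were higher. In the contrast between the pH values 9 of 16 and 3 of 9 were lower, against 13.2% of all features. These are counts of few genes, and the difference between the classes was not tested. MRP8, the member of neither subunit, was above 0 on all 4 arrays in BY4741 (0.07 to 0.36) and on all 4 at pH 6.0 (0.12 to 0.33) but not in W303 at pH 4.5 (-0.10 to 0.17), and it was called in none of the sets.

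Some members stayed near 0 in BY4741 at pH 4.5, and part of them also in W303. MRPL40, a bacterial-type protein of the large subunit, read between -0.21 and 0.14 in BY4741 and between -0.05 and 0.06 in W303. MRP1, a mitochondria-specific protein of the small subunit, read between -0.23 and 0.03 in BY4741 and between -0.14 and 0.09 in W303. MRPL35, a mitochondria-specific large subunit protein, lay between -0.11 and 0.03 in BY4741 and rose by 0.16 ± 0.059 (SD, n = 4; limma adjusted p = 0.0385) in W303. These 3 were picked after their values were seen. MRPS12 and RSM19, which are neighbours in the genome, were both called higher in both pH 4.5 sets, at 0.44 and 0.33 in BY4741 and at 0.60 and 0.39 in W303. MRP4 and MRPL19 overlap other open reading frames on the arrays, and neither was called in any set.

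Mitochondrial ribosomal proteins with other names, which the rule left out, were in part higher at pH 4.5 as well. In BY4741, 7 of 11 were higher and none lower by limma (7 and none at an unadjusted p below 0.05), with a median of 0.24, and in W303 at pH 4.5, 6 of 11 were higher and none lower (6 and none unadjusted), with a median of 0.21. These shares of 63.6% and 54.5% higher stood beside 15.9% and 36.1% of all features. At pH 6.0 none of 10 was called (1 lower at an unadjusted p below 0.05), with a median of -0.06. MHR1, a large subunit protein also known for a role in mitochondrial DNA recombination, read 1.30, 0.63, 1.39 and 0.97 in BY4741, a mean of 1.07 ± 0.13 (SE, n = 4; limma adjusted p = 0.00229), above every member. In W303 at pH 4.5 it read 0.46, 0.38, 0.20 and 0.14, a mean of 0.29 ± 0.070 (SE, n = 4; limma adjusted p = 0.00503). In the contrast between pH 6.0 and pH 4.5, MNP1 at -0.56 ± 0.12 (SE; limma adjusted p = 0.00504) and SWS2 at -0.54 ± 0.12 (SE; limma adjusted p = 0.0071) were lower, and all 10 differences were below 0. The 2 called are 20% of those tested, against 13.2% of all features called lower.

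Other parts of the mitochondrial translation machinery held genes that moved either way, and their difference from the members was not tested. Of all features, 15.9% were called higher and 15.4% lower in BY4741, and 36.1% and 33.1% in W303 at pH 4.5. Of the mitochondrial aminoacyl-tRNA synthetases, none was higher and 1 of 12 lower in BY4741 (3 and 2 at an unadjusted limma p below 0.05), with a median of 0.01. In W303 at pH 4.5, 6 of 13 were higher and 1 lower (46.2% and 7.69%), with a median of 0.16. MSE1, which charges the glutamate tRNA, rose by 0.42 ± 0.059 (SE, n = 4; limma adjusted p = 0.000245) in W303, and MSR1, for arginine, fell by 0.53 (SE 0.073, n = 3; limma adjusted p = 0.00035). Of the translation factors, 3 of 11 were higher and 2 lower in BY4741 (27.3% and 18.2%). In W303 at pH 4.5, 5 of 12 were higher and 4 lower (41.7% and 33.3%), near the shares of all features. The elongation factor MEF1 was higher in both, at 0.34 ± 0.078 (SE, n = 4; limma adjusted p = 0.0199) and 0.37 ± 0.058 (SE, n = 4; limma adjusted p = 0.000529).

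Of the factors for ribosome assembly and rRNA modification, 1 of 6 was higher and 1 lower in BY4741, and 3 of 6 were higher and 1 lower in W303 at pH 4.5. In BY4741 that was 16.7% each way, near the 15.9% and 15.4% of all features. In W303 it was 50% higher and 16.7% lower, against 36.1% and 33.1%. MRM1, a methyltransferase of the large mitochondrial ribosomal RNA, rose by 0.46 ± 0.070 (SE, n = 4; limma adjusted p = 0.00494) in BY4741 and by 0.70 ± 0.067 (SE, n = 4; limma adjusted p = 2.69e-05) in W303. Of the translational activators of single mitochondrial mRNAs, with a membrane receptor of the ribosome, 1 of 15 was higher in BY4741 (6.67%). In W303 at pH 4.5, 8 of 14 were higher and 2 lower (57.1% and 14.3%). CBP6, which acts on cytochrome b synthesis, was the 1 in BY4741 at 0.62 ± 0.064 (SE, n = 4; limma adjusted p = 0.00121), and it was at 0.59 ± 0.065 (SE, n = 4; limma adjusted p = 6.12e-05) in W303. At pH 6.0 no gene of these 4 lists was called by limma; at an unadjusted p below 0.05 there were none among the synthetases and the translation factors, 1 among the assembly factors and 2 among the activators.

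Of the regulators of respiratory genes in the Hap complex, with Hap1 and Puf3, 1 of 5 was higher in BY4741 (20%, against 15.9% of all features). In W303 at pH 4.5, 3 of 6 were higher (50%, against 36.1%). None was called lower by limma in either set, also at an unadjusted p below 0.05. HAP1, a haem-responsive activator, read 0.38, 0.67, 0.58 and 0.91 in BY4741 and 0.72, 1.16, 0.82 and 0.77 in W303 at pH 4.5, with means of 0.63 ± 0.093 (SE, n = 4; limma adjusted p = 0.00454) and 0.87 ± 0.081 (SE, n = 4; limma adjusted p = 2.37e-05). HAP4, the activating subunit of the complex, had no value in BY4741 and read 0.81, 0.87, 0.94 and 0.82 in W303 at pH 4.5, a mean of 0.86 ± 0.059 (SE, n = 4; limma adjusted p = 4.2e-06). HAP5, a DNA-binding subunit, had a mean of 0.01 in BY4741, where it was not called, and of 0.54 ± 0.062 (SE, n = 4; limma adjusted p = 8.21e-05) in W303 at pH 4.5. HAP2 had means of -0.34 and -0.19 in these sets and HAP3 of 0.17 and 0.01, none of them called. PUF3 was on both sides of 0 in both pH 4.5 sets, from -1.27 to 1.49 in BY4741 and from -0.84 to 0.54 in W303.

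Nuclear genes that encode parts of the respiratory chain and the ATP synthase had larger medians than the members in every set. They were higher in 36 of 40 cases in BY4741 (90%, against 15.9% of all features), with a median of 0.94. For W303 at pH 4.5, 38 of 41 were higher (92.7%, against 36.1%) and 2 lower, with a median of 0.70. At pH 6.0, 3 of 39 were higher (7.69%, against 1.92%), with a median of 0.45. Their median per array at pH 6.0 ran from 0.27 to 0.71 and was above the member median on each of the 4 arrays. The 3 called at pH 6.0 were the internal NADH dehydrogenase NDI1 at 1.02 ± 0.092 (SE, n = 4; limma adjusted p = 0.0101) and the cytochrome oxidase subunits COX4 at 0.71 ± 0.099 (SE, n = 4; limma adjusted p = 0.032) and COX5A at 0.65 ± 0.12 (SE, n = 4; limma adjusted p = 0.0495). In the contrast between the pH values, 7 of 38 of these genes were lower (18.4%) and 2 higher (5.26%), against 13.2% and 10.7% of all features.

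Genes of the cytosolic ribosome had medians below 0 in each set. Of 129 cytosolic ribosomal protein genes, 106 were lower and 1 higher in W303 at pH 4.5 (82.2% lower, against 33.1% of all features), with a median of -0.36. In BY4741 23 of 127 were lower and 4 higher, with a median of -0.08, and the 18.1% lower was near the 15.4% of all features. At pH 6.0 none of 129 was called by limma (1 higher and 6 lower at an unadjusted p below 0.05), with a median of -0.09. In the contrast between pH 6.0 and pH 4.5, 30 of 127 were higher (23.6%, against 10.7% of all features) and none lower (55 and 1 unadjusted), with a median difference of 0.24, opposite in sign to the -0.31 of the members. Many cytosolic ribosomal protein genes exist as near-identical pairs that an array cannot always separate. General stress and stationary phase genes moved with the sets as well, with medians of 0.54 in BY4741, 2.00 in W303 at pH 4.5 and 0.60 at pH 6.0. In the contrast between the pH values 12 of 14 were lower (85.7%, against 13.2% of all features). Their part in the results on the members was not tested.

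**Figure D4:**
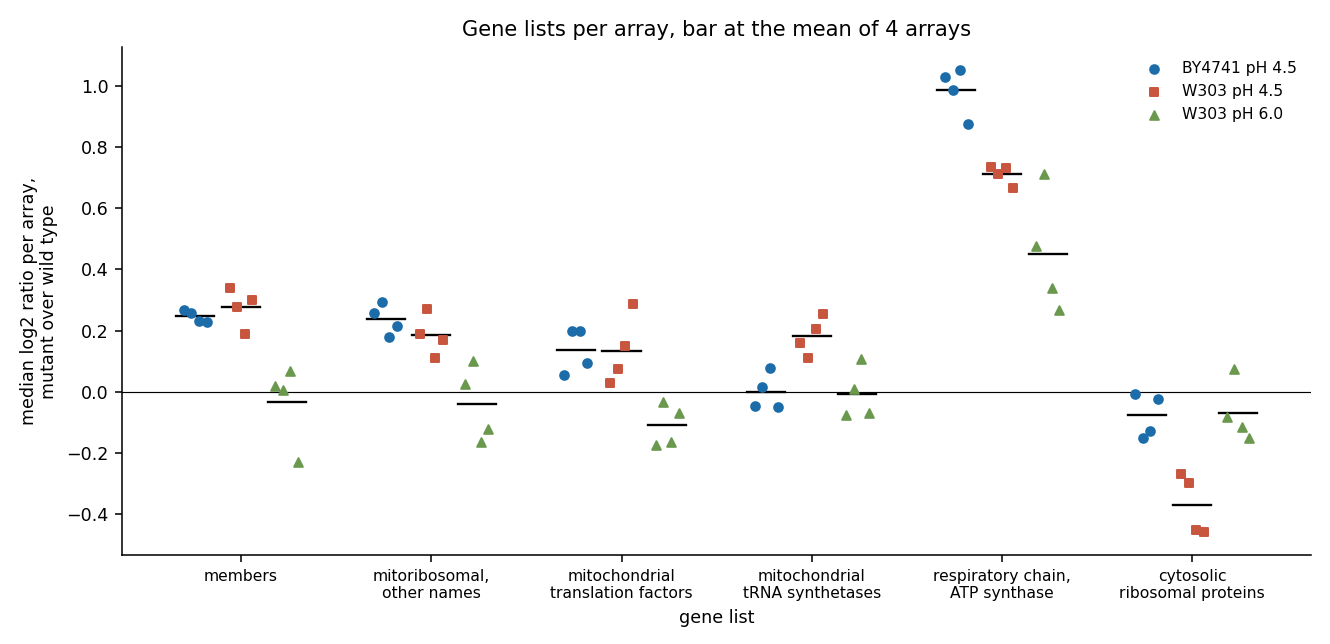
Median log2 ratio of mutant over wild type of 6 gene lists (horizontal axis) on each array (vertical axis), with circles for BY4741 at pH 4.5, squares for W303 at pH 4.5, triangles for W303 at pH 6.0 and a bar at the mean of the 4 arrays. Members and other mitochondrial ribosomal proteins lie above 0 on all 8 arrays at pH 4.5, the respiratory chain lies higher on all 12, and the cytosolic ribosomal proteins lie below 0 on all 8 arrays at pH 4.5.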

How the data were processed

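Per the labels' protocols, aminoallyl cDNA made with a poly-dT primer from total RNA was coupled to Cy5 or Cy3. The authors deposited 1 value per open reading frame and array, read here as a log2 ratio of Cy5 over Cy3; the values run from -7.15 to 5.55, which was taken to mean base 2, and neither the log base nor the normalisation is given in the sources used here. Where the mutant was in Cy3 the sign was turned. Names came from the RefSeq table, which matched 5481 of 5994 open reading frames. Within sets, 10 of 11 pairs of arrays with opposite dyes correlated negatively as deposited.

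Each set was fitted with limma 3.58.1 in R 4.3.3 as 1 mean per feature, in place of the one-class SAM of the design text; contrasts came from 1 fit of all 12 arrays, for features with at least 3 values in every set. Tests are two-sided, with Benjamini-Hochberg adjustment over all features and a threshold of 0.05. The 2 contrasts share the arrays of W303 at pH 4.5. SD is between arrays and SE is limma's. The fits were tested on simulated data. Members and lists were chosen with earlier results of these data known. Members named were the 6 largest called rises and falls per set, the 3 widest ranges, the 5 largest called differences per contrast, and others said to be picked; lists name up to 3 called genes per set. Alternatives changed the filter, scaling, dye term, minimum fold, spread, replicate block and arrays left out. The number of arrays limits the precision, and signal over background is unknown.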

Additional observations from a re-analysis of the deposited data

Results flagged for a closer look

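Of 55 groups of 4 values, 3 held an array that stood far from the other 3, by Dixon's test of the gap over the range. Chance gives this in about 1 group in 20 where groups are not picked by their values. MRP21 and MRPL17 were named for their wide ranges in the same sets, so that rate does not apply to them. MRP21 in W303 at pH 6.0 was at 2.16 on replicate 3, the array that correlated least with its set, and between -0.30 and 0.00 on the others. MRPL17 in W303 at pH 4.5 was at 0.59 on replicate 1 and between -0.04 and 0.00 on the others. MRP2 in BY4741 was at 0.53 on replicate 1, a small distance below 0.57 to 0.58 on the others, in a group whose whole range was 0.048.

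Between groups, the mutant's effect was called different for RSM24, by 0.31 (W303 minus BY4741 at pH 4.5). That call was lost when any 1 array of either set was left out. The 5 members with the largest called differences between pH 6.0 and pH 4.5 in W303 were each lower at pH 6.0. These were MRP49 by -1.02, MRPL31 by -0.96, MRPS8 by -0.76, MRPL39 by -0.74 and MRPS35 by -0.69. MRP49, MRPL31 and MRPS35 had no value on replicate 3 of pH 6.0, and MRPL39 none on replicate 2.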

How the results depend on the processing

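With arrays left out 1 at a time, the members called ranged from 15 to 26 in BY4741 and from 40 to 42 in W303 at pH 4.5. The count was 15 in BY4741 without replicate 3 (24.2%, against 13.6% of all features) and 15 without replicate 4 (23.8%, against 17.9%). The 40 in W303 at pH 4.5, without replicate 4, were 62.5%, against 58.5% of all features. At pH 6.0 the count stayed at 0, and between the strains it ran from 0 to 1. Between the pH values it ran from 10 to 27, with 27 reached without replicate 3 of pH 6.0 (44.3%, against 30.6%). It was 10 without replicate 4 of W303 at pH 4.5 (17.2%, against 15.2%). Without replicates 1 and 3 of that set it was 15 (25.9%, against 17.5%) and 16 (27.6%, against 17.9%). These shares of features count both directions. A minimum change of 1.2-fold left 4 in BY4741, all higher (6.45%, against 5.66% of all features). In W303 at pH 4.5 it left 11, of which 10 were higher and 1 lower (17.5%, against 31.8%). The fit of all 12 arrays gave 7 at pH 6.0, 2 higher and 5 lower (11.9%, against 22.7%). With a dye term 39 were called in BY4741, all higher (62.9%, against 43.9%). In W303 at pH 4.5 that fit called 46, of which 44 were higher and 2 lower (73.0%, against 66.3%), and at pH 6.0 none. These shares of features count both directions too, and shares by direction are not given here. The main fit gave 1 difference between the strains (higher in W303) and 25 between the pH values. A spread for each set gave 6 (2 higher and 4 lower) and 13. Centring and scaling gave 4 (none higher, RSM24 not called) and 6. A dye term gave 1 (higher in W303) and 21 (36.2%, against 24.4% of all features). Only the 8 arrays compared gave 8 (3 higher and 5 lower, 12.9%, against 38.1% of all features) and 12 (20.3%, against 17.1%). The causes were not tested. Every member called between the pH values under these settings was lower at pH 6.0. Deviations of same-numbered arrays had r from -0.142 to 0.191 between strains and from -0.143 to 0.241 between pH values. Arrays with different numbers had r from -0.172 to 0.230 and from -0.272 to 0.313. Some same-numbered arrays differ in dye orientation, so these values cannot decide whether the numbers pair the samples. The replicate block gave 0 and 16.

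Centring and scaling moved the member median to 0.30 in BY4741 and 0.23 in W303 at pH 4.5. With arrays left out it ran from 0.24 to 0.26 in BY4741, from 0.26 to 0.32 in W303 at pH 4.5 and from -0.10 to 0.02 at pH 6.0. The gap between the subunits ran from 0.03 to 0.10, from -0.07 to -0.04 and from -0.01 to 0.04, and by name alone it was -0.10 in W303 at pH 4.5. Of 315 values of named members under alternatives, 292 kept their direction and side of the threshold, 19 lost and 1 gained a call, and 3 that were never called changed sign. With arrays left out, MRPL17 in W303 at pH 4.5 ran from -0.017 (without replicate 1) to 0.19, and at pH 6.0 MRP21 ran from -0.17 (without replicate 3) to 0.66 and MRPL33 from -0.065 (without replicate 2) to 0.72.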
